A study of Mus musculus with 6 samples.

Results

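Serpins are a family of proteins named for serine protease inhibitors, and their genes were followed here in the distal colon of 3 Gm31629-/- and 3 WT mice. Members were the rows of the deposited expression table whose mouse symbol starts with Serpin, a clade letter from a to i and a number, without the genes marked -ps as pseudogenes. This gave 42 of the 27546 genes listed, with 18 in clade A, 13 in clade B, 3 in clade E, 2 each in clades F and I, and 1 each in clades C, D, G and H. A further 21 serpin symbols of the GENCODE M21 annotation had no row in the deposited expression table. Gm31629 is a long noncoding RNA, and in the knockout mice its region on chromosome 1 was targeted for deletion, with no restriction to a cell type described. The level of Gm31629 itself was not analysed here, so the genotype was not checked in these values. The controls were their WT littermates. All 6 mice were 8 weeks old and labelled as C57BL/6 (C57BL/6J in the methods), received a 3% solution of dextran sulfate sodium (DSS), which injures the colonic epithelium, as drinking water for 7 days and were killed on day 8. No untreated mice were compared, so each result is a difference between genotypes in DSS-treated colon.

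An inhibitory serpin works as a bait. It exposes a flexible loop that a protease cuts, and the cut loop then snaps into the body of the serpin and drags the protease with it, which leaves the enzyme trapped and inactive. The residues of the loop decide which protease is caught, and a short hinge at its start must be small and mobile for the trap to work. Clade A serpins are mostly secreted into blood and tissue fluid, clade B serpins mostly stay inside cells and protect them from proteases of immune granules, and members of clades E to I govern clot breakdown, complement, collagen folding and neural proteases. A few members, such as Serpinb5, Serpinf1 and Serpinh1, do not act as protease inhibitors.

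In mice the single human gene for antichymotrypsin has multiplied into the Serpina3 cluster, of which 10 genes were listed, spread over 286 kb of chromosome 12 (GRCm38). The 7 of these that were called between genotypes are given over the coding bases of the reactive loop, because this is where the copies differ most. The sequences come from the GENCODE M21 transcripts, run 5′ to 3′ on the coding strand from the hinge to the conserved motif after the loop, and have the bases that differ from Serpina3n in capitals. Gaps in the alignment are not marked.
Serpina3n: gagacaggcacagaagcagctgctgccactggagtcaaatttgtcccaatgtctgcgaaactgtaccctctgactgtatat
Serpina3f: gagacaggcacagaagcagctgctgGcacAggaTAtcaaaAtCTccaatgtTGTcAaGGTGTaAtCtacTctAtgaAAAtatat
Serpina3i: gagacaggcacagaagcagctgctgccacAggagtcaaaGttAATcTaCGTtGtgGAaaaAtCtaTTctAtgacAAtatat
Serpina3c: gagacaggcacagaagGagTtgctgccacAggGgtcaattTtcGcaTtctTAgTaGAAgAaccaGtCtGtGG
Serpina3k: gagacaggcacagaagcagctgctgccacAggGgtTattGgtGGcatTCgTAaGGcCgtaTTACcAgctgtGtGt
Serpina3m: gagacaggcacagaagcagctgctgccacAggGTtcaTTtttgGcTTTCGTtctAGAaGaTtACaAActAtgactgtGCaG
Serpina3g: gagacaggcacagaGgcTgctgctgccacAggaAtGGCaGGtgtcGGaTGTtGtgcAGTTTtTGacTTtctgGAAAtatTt
Over this stretch the other 6 genes shared between 64.2% (Serpina3g) and 77.2% (Serpina3f) of aligned bases with Serpina3n. In the coding sequence before the loop, the shared bases ranged from 85.3% (Serpina3k) to 89.5% (Serpina3g). The value of Serpina3g covers only 486 aligned bases, against 1062 to 1092 for the other genes, so it is not like for like. The hinge bases at the left end were nearly the same in all 7 genes, and the capitals crowd into the middle and right of the stretch, where the protease is bound and cut.

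Promoters were searched for 3 motifs on both strands, in the 250 bases before and 50 bases after each start in RefSeq (GRCm38.p6). Of the 42 members, 34 were matched to a promoter. TTCNNNGAA, the spacing that STAT factors bind, was found in 5 of these 34 and in 8.30% of all 32851 promoters. TGANTCA, which AP-1 factors bind, was found in 8 of 34 and in 7.81% of all promoters, and TATAAA in 8 of 34 and in 13.6% of all promoters. These figures are not like for like. A member with several starts counted if any of them had the motif, whereas the share of all promoters counts each promoter singly. The members with a motif also include neighbouring related genes, such as Serpina1a, Serpina1b and Serpina1c for TGANTCA, which are not independent cases. Among the 10 called members with a promoter, TTCNNNGAA was found in 3 (Serpina3f, Serpina3g and Serpina3i), TATAAA in 2 (Serpina3c and Serpina3f) and TGANTCA in 0. The promoters of 3 genes of the cluster are given on the plus strand, with TTCNNNGAA in capitals, to show a gene without the motif and 2 genes with it. They lie at chr12:104406458-104406757 for Serpina3n, chr12:104235897-104236196 for Serpina3g and chr12:104262872-104263171 for Serpina3i.
Serpina3n: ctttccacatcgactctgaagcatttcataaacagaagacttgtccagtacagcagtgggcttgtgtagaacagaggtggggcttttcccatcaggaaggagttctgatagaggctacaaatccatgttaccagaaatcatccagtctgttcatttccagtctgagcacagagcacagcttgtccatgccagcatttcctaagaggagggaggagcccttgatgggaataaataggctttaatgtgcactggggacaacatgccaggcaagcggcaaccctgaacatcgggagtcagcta
Serpina3g: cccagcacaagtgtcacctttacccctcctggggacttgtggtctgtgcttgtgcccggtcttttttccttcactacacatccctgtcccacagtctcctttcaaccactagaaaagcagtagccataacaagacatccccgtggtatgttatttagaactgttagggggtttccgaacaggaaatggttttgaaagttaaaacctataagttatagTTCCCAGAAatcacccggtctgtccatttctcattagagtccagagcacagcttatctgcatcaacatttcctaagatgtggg
Serpina3i: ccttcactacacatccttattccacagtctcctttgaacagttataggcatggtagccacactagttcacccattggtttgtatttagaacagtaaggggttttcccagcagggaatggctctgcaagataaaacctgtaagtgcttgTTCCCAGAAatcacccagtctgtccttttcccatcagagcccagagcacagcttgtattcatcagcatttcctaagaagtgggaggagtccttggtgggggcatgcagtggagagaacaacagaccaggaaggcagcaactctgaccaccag
The motif reads TTCCCAGAA in both Serpina3g and Serpina3i. A match is a description of these letters and not of a bound site.

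Before the serpins are described, some facts on the libraries bear on them. Values are FPKM, which are mapped fragments scaled for the length of the gene's exons and for the depth of the library, and the depth behind them was 18006000 to 18795100 fragments per library. WT libraries correlated with each other at 0.979 to 0.985 on the log2(FPKM + 1) scale, Gm31629-/- libraries at 0.915 to 0.937, and libraries of different genotype at 0.777 to 0.853. Gm31629-/- mouse 1 differed from the other 5 mice in 4 genes of the Y chromosome (Eif2s3y, Ddx3y, Kdm5d and Uty at 2.03 to 15.4 FPKM, and 0 in the others) and in Xist, at 0.00606 FPKM against 8.35 to 13.8, whereas the study describes its mice as male. Counts are therefore also given without this mouse. The tissue label held in that 10 colon epithelium markers summed to 13283 to 15132 FPKM in WT mice and 6520 to 8921 FPKM in Gm31629-/- mice, with 3 of 10 called lower and 0 higher. These sums lean on Krt8 and Car1, with means of 4198 and 4692 FPKM in WT and 2042 and 1249 FPKM in Gm31629-/- mice. Epcam (means of 1104 and 1109 FPKM) and Cdh1 (405 and 395 FPKM) differed little between WT and Gm31629-/- mice. Slc26a3 had a higher mean in Gm31629-/- mice, 99.5 against 35.1 FPKM, and was not called. Markers of the outer colon wall were higher in Gm31629-/- mice. The 10 smooth muscle markers, 9 of them called higher, summed to 11.9 to 35.4 FPKM in WT mice and 1423 to 2313 FPKM in Gm31629-/- mice. Adipocyte markers (4 of 5 tested called higher) and B and plasma cell markers (4 of 4) summed to 13.4 to 56.5 and 12.9 to 20.8 FPKM in WT mice and to 140 to 503 and 224 to 395 FPKM in Gm31629-/- mice. Mesothelial markers (2 of 3 tested called higher) summed to 22.6, 41.9 and 3.44 FPKM in Gm31629-/- mice and 2.51 to 3.00 FPKM in WT mice, and squamous and mast cell markers had 0 called and summed to at most 4.38 FPKM in any mouse. In whole tissue, more cells of a type and more RNA per cell cannot be told apart.

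Serpin mRNA was higher in Gm31629-/- colon, and the rise ran through 6 clades. Of the 42 members, 18 had a mean of at least 0.5 FPKM over the 6 mice and were tested with limma on log2(FPKM + 1). To be called, a gene needed an adjusted p under 0.05 (Benjamini-Hochberg over all 14657 genes tested) together with a log2 fold change past 1 in either direction. By this rule 14 serpins were called higher and 0 lower, where 18.4% of all tested genes were called higher and 4.64% lower. The 14 comprised 7 of 8 tested genes in clade A, 2 of 5 in clade B, and genes of clades E, F, G and H. Among the 18 tested members 0 were lower even at an unadjusted p under 0.05, and limma's voom on recovered fragments called 13 higher and 0 lower, beside 24.8% and 6.85% of all genes it tested. Scaling by the median ratio called 13 higher and 0 lower, beside 16.3% and 6.8% of tested genes. A filter at a mean of 5 FPKM left 10 members, of which 6 were called higher and 0 lower, beside 13.2% and 6.81%. Serpina3f, Serpina3g, Serpina3m and Serpina3n, with WT means of 0.138 to 3.94 FPKM, passed this filter only through their level in Gm31629-/- mice. Without the fold threshold, 15 of the 18 were higher at an adjusted p under 0.05, beside 28.9% of tested genes. The median log2 fold change of the 18 was 1.92, beside 0.15 for all tested genes. Of the 14, 6 had a WT mean under 0.5 FPKM and so passed the filter only through their level in Gm31629-/- mice. Without a filter, 13 of the 42 members were called higher and 0 lower, beside 9.21% and 2.25% of all genes. Without Gm31629-/- mouse 1, 13 of the 18 were called higher, and the lost call was that of Serpina3k. The share of all tested genes called without this mouse is not given here, so this count has no figure to be set beside.

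**Figure D1:**
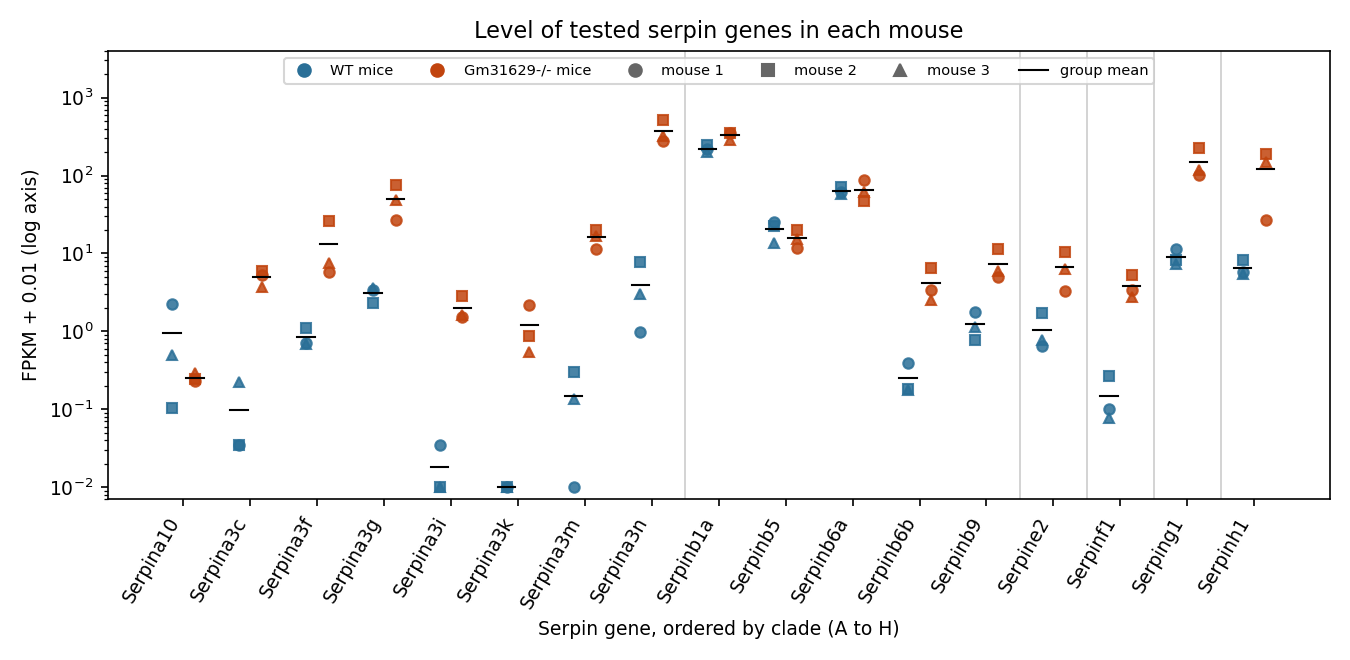
FPKM + 0.01 on a log axis for tested serpin genes, ordered by clade, with WT mice in blue, Gm31629-/- mice in orange, a marker shape for each mouse number and a black line at the group mean. Serpina3n rose from 0.969 to 7.83 FPKM in WT mice to 276 to 522 FPKM in Gm31629-/- mice, while Serpinb6a and Serpinb5 overlapped between groups.

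Among the genes called, Gm31629-/- mouse 2 had the highest value of its group for 13 of 14, and mouse 1 for the other, Serpina3k. Mouse 1 had the lowest value for 10 of 14, and mouse 3 for 4. Most called members thus shared the same order of the knockout mice. How often this order occurred among all called genes was not counted, so it cannot be read as particular to serpins or their partners.

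Serpina3n, a secreted inhibitor of granzyme B and neutrophil proteases and a common marker of tissue injury, showed the largest log2 difference of the tested members on the log2(FPKM + 1) scale, which understates the change of low genes. It stood at 276, 522 and 318 FPKM in Gm31629-/- mice 1 to 3 and at 0.969, 7.83 and 3.02 FPKM in WT mice 1 to 3. The groups were far apart, and the lowest knockout value lay above the highest WT value. On the log2(FPKM + 1) scale the difference was 6.44 (SE 0.52, 95% interval 5.21 to 7.67, limma adjusted p = 0.000327). Behind these values were 10464, 19868 and 12051 fragments against 37, 291 and 117, which gives a ratio of pooled depth-scaled fragments of 95.4 (exact 95% interval 86.9 to 104.9 for counting error only). Ranked by FPKM among the 27546 genes, Serpina3n was number 137, 57 and 128 in the 3 Gm31629-/- libraries and number 10953, 5154 and 8056 in the 3 WT libraries. In knockout colon it was thus among the most abundant mRNAs of the tissue. Across all 14 other settings its log2 difference stayed between 5.91 and 6.99. The gene lies at chr12:104406729-104414329 on the plus strand, and only 4 of its 1965 windows of 100 bases (0.204%) occurred in another gene's transcripts.

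Upstream of it, Serpina3g encodes an intracellular inhibitor of cysteine cathepsins that is best known from lymphoid and myeloid cells. Its levels were 26.8, 75.5 and 47.9 FPKM in Gm31629-/- mice and 3.36, 2.30 and 3.61 FPKM in WT mice, a log2 difference of 3.54 (SE 0.36, limma adjusted p = 0.000599). The groups did not overlap, and in WT colon Serpina3g (3.09 ± 0.701 FPKM, SD, n = 3) was near the level of Serpina3n (3.94 ± 3.52 FPKM, SD, n = 3). Serpina3m reached 11.3, 20.05 and 16.97 FPKM in Gm31629-/- mice against 0, 0.291 and 0.124 FPKM in WT mice, a log2 difference of 3.88 (SE 0.23, limma adjusted p = 0.000157). This gene had close to no signal in WT colon, with 0, 9 and 4 fragments.

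Serpina3f showed 5.77, 25.9 and 7.56 FPKM in Gm31629-/- mice and 0.708, 1.09 and 0.674 FPKM in WT mice (log2 difference 2.67, SE 0.48, limma adjusted p = 0.00506). Mouse 2 was well above the other knockout mice, and all 3 were above WT. For Serpina3c the values were 5.25, 5.90 and 3.67 FPKM against 0.0244, 0.0251 and 0.216 FPKM (log2 difference 2.43, SE 0.20, limma adjusted p = 0.000327). The knockout mice lay close together here. Serpina3i, at 1.51, 2.80 and 1.59 FPKM against 0.0243, 0 and 0 FPKM, rested on 242 fragments in knockout and 1 in WT libraries (log2 difference 1.53, SE 0.20, limma adjusted p = 0.00142).

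Serpina3k, the mouse counterpart of a kallikrein-binding protein, was measured at 2.17, 0.869 and 0.529 FPKM in Gm31629-/- mice and was at 0 in all 3 WT mice. Set against a floor of 3 fragments per WT library, its 135 knockout fragments were at least 15.0-fold higher (log2 difference on the FPKM + 1 scale 1.06, SE 0.27, limma adjusted p = 0.0176). This was the weakest call of the cluster. It was lost without any 1 of the WT mice (adjusted p = 0.0515 to 0.0622), and without Gm31629-/- mouse 1 the log2 difference was 0.76. Serpina3k and Serpina3m share an annotated start, and 95 windows of 100 bases are common to both, which is 4.85% of the windows of Serpina3k and 6.09% of those of Serpina3m. Shared windows made up 2.33% to 4.64% of Serpina3f, Serpina3g, Serpina3h and Serpina3i and 0 of Serpina3c. Reads from shared stretches can be split between copies or dropped, so the values of Serpina3f, Serpina3g, Serpina3h, Serpina3i, Serpina3k and Serpina3m are less certain.

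The 3 other listed genes of the cluster stayed below the filter. Serpina3h, which the annotation calls a transcribed pseudogene, had 25, 26 and 24 fragments in Gm31629-/- libraries and 0, 1 and 0 in WT libraries, and in the fit without a filter its log2 difference was 0.94 (SE 0.08, limma adjusted p = 0.00223). Serpina3b and Serpina3j had 3 fragments each in all Gm31629-/- libraries together and 0 in WT libraries.

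**Figure D2:**
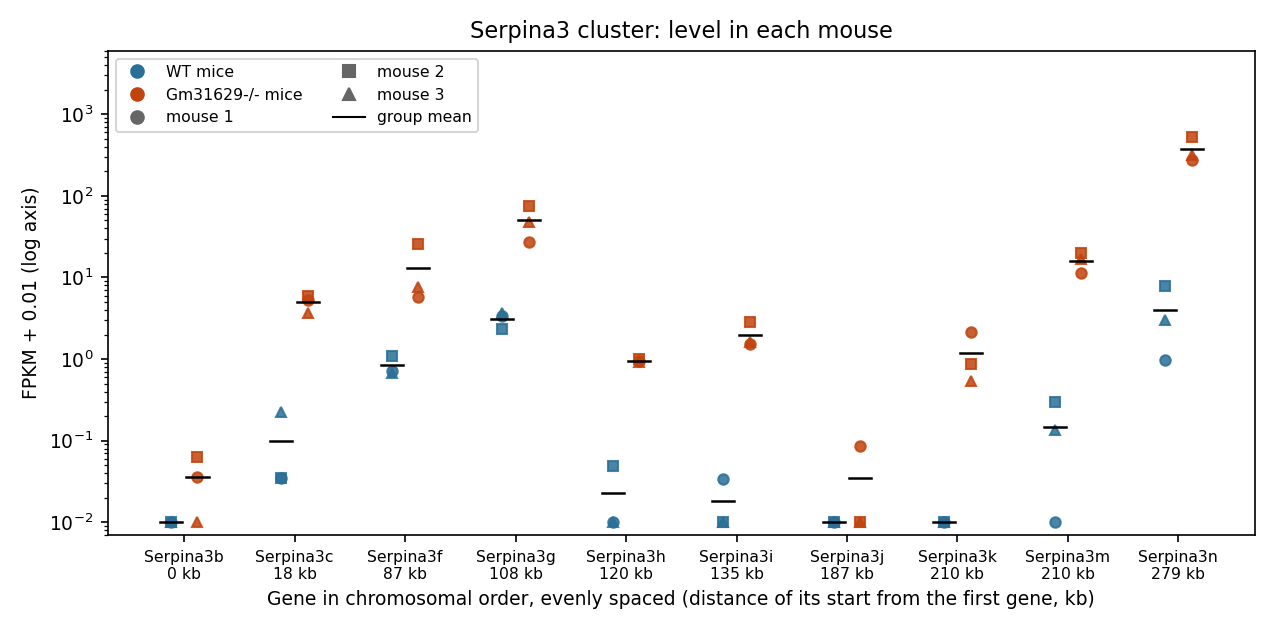
FPKM + 0.01 on a log axis for the 10 listed Serpina3 genes in chromosomal order, evenly spaced, with the distance of each start from the first gene in kb. In Gm31629-/- mice (orange) Serpina3n at 279 kb was highest, followed by Serpina3g at 108 kb and Serpina3m at 210 kb, and Serpina3b and Serpina3j stayed near 0 in both groups.

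The remaining 8 members of clade A are genes of the liver or of other tissues, and 1 of them was tested. Serpina10, a plasma inhibitor of activated coagulation factor X, was at 0.217, 0.232 and 0.280 FPKM in Gm31629-/- mice and 2.23, 0.0953 and 0.487 FPKM in WT mice. The groups overlapped, and WT mouse 1 alone carried most of the WT signal (log2 difference -0.48, SE 0.37, limma adjusted p = 0.319). The alpha-1-antitrypsin genes, which encode the main plasma inhibitor of neutrophil elastase, gave few fragments. Serpina1e had 25, 9 and 26 fragments in Gm31629-/- mice against 0, 1 and 0 in WT mice, and Serpina1b 29, 17 and 36 against 6, 7 and 14. Without a filter the log2 differences were 0.71 (limma adjusted p = 0.0205) and 0.42 (limma adjusted p = 0.0589). Of the windows of the 4 listed alpha-1-antitrypsin genes 14.8% to 58.5% were shared, so the split between copies is uncertain. The 6 hepatocyte markers summed to 0.281 to 0.818 FPKM in Gm31629-/- mice and 0.128 to 0.325 FPKM in WT mice, which is at or near 0, and Fgb, Fgg and Ahsg were at 0 in WT mice. Serpina1a, Serpina1c, Serpina7, Serpina9 and Serpina12 had at most 26 fragments each over the Gm31629-/- mice and at most 11 over the WT mice.

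In clade B the abundant members differed little and the scarce ones differed more. Serpinb1a, an intracellular inhibitor of neutrophil elastase, cathepsin G and proteinase 3, was the most abundant serpin of WT colon. It stood at 350, 356 and 283 FPKM in Gm31629-/- mice and at 219, 247 and 200 FPKM in WT mice. The groups did not overlap, but the log2 difference of 0.57 (SE 0.17, 95% interval 0.18 to 0.96, limma adjusted p = 0.0292) lay under the fold threshold. That adjusted p rose above 0.05 without Gm31629-/- mouse 1 (0.0649) or 2 (0.0511), without WT mouse 1 (0.0924) or 3 (0.121), with the replicate number as a block (0.0535), without a filter (0.0553) and with median-ratio scaling (0.0791).

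Serpinb6a, an inhibitor of cathepsin G in many cell types, had 88.5, 46.7 and 61.8 FPKM in Gm31629-/- mice and 61.7, 71.5 and 57.7 FPKM in WT mice. The WT values lay inside the knockout range, and the log2 difference was 0.0021 (SE 0.24, 95% interval -0.56 to 0.56, limma adjusted p = 0.995), with a sign that changed between settings. Serpinb5 (maspin), an epithelial protein that does not inhibit proteases, was at 11.9, 19.8 and 15.4 FPKM against 25.2, 22.7 and 13.8 FPKM (log2 difference -0.35, SE 0.27, 95% interval -0.98 to 0.28, limma adjusted p = 0.316). Here 2 of the 3 WT mice were above all knockout mice, and WT mouse 3 was not.

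In clade B, Serpinb9 and Serpinb6b, which act on granzymes, were called higher. Serpinb9, the inhibitor with which killer cells guard themselves against granzyme B, had 4.91, 11.3 and 5.98 FPKM in Gm31629-/- mice and 1.78, 0.763 and 1.14 FPKM in WT mice (log2 difference 1.86, SE 0.31, limma adjusted p = 0.00363). Serpinb6b, which inhibits granzyme A, had 3.36, 6.47 and 2.55 FPKM against 0.382, 0.172 and 0.165 FPKM (log2 difference 1.98, SE 0.28, limma adjusted p = 0.00205). In neither gene did the groups overlap. The 5 markers of T and NK cells summed to 5.23 to 21.5 FPKM in Gm31629-/- mice and 4.51 to 8.48 FPKM in WT mice, so these ranges overlapped.

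Of the 8 other members of clade B, 0 passed the filter. Serpinb8, an inhibitor of furin, had 28, 78 and 20 fragments against 6, 0 and 4, and its groups did not overlap. Serpinb1b had 16 fragments in knockout libraries and 1 in WT libraries, and Serpinb1c 29 and 2. Serpinb2, a stress-induced inhibitor of urokinase, had 9 and 1. The others (Serpinb7, Serpinb9b, Serpinb9e and Serpinb10, the last annotated as a polymorphic pseudogene) had at most 9 fragments in Gm31629-/- mice and 0 in WT mice.

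Serping1, the C1 inhibitor that blocks the starting proteases of complement and of the contact system, was called higher. Its levels were 102, 227 and 119 FPKM in Gm31629-/- mice and 11.4, 8.24 and 7.35 FPKM in WT mice. The lowest knockout value was several times the highest WT value, and the log2 difference was 3.84 (SE 0.31, 95% interval 3.11 to 4.58, limma adjusted p = 0.000327). Both tested targets of this inhibitor on the complement list moved with it. C1ra was at 20.9, 62.4 and 26.5 FPKM in Gm31629-/- mice and 1.69, 1.73 and 1.43 FPKM in WT mice (log2 difference 3.69, limma adjusted p = 0.000603). C1s1 was at 21.7, 67.2 and 29.6 FPKM against 1.38, 2.02 and 1.07 FPKM (log2 difference 3.88, limma adjusted p = 0.000614). The inhibitor and these 2 proteases all had their highest value in Gm31629-/- mouse 2 and their lowest in mouse 1.

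Serpinh1, a collagen chaperone of the endoplasmic reticulum that binds no protease, had 26.7, 188 and 150 FPKM in Gm31629-/- mice and 5.80, 8.34 and 5.42 FPKM in WT mice. Mouse 1 was well below the other 2 knockout mice and still above WT (log2 difference 3.64, SE 0.68, limma adjusted p = 0.00555). All 6 collagen genes on its client list were called higher, with log2 differences of 2.71 (Col1a1) to 3.95 (Col4a1). Col4a1 stood at 48.6, 153 and 99.1 FPKM in Gm31629-/- mice against 3.38, 8.42 and 3.97 FPKM in WT mice. Each of the 6 collagens, like Serpinh1, was lowest in knockout mouse 1 and highest in mouse 2. The 7 fibroblast markers, all called higher, summed to 127 to 264 FPKM in Gm31629-/- mice and 4.34 to 13.7 FPKM in WT mice. Their part in the levels of Serpinh1, Serping1 and Serpinf1 was not tested.

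Serpine2 (protease nexin), which inhibits thrombin and both plasminogen activators near the cell surface, was at 3.27, 10.51 and 6.27 FPKM in Gm31629-/- mice and 0.646, 1.71 and 0.770 FPKM in WT mice (log2 difference 1.83, SE 0.38, limma adjusted p = 0.00816). Its groups did not overlap. Serpine3 had 2 fragments in knockout and 1 in WT libraries. Among the proteases that Serpine2 acts on, Plat, the tissue plasminogen activator, was called higher at 6.64, 62.1 and 17.8 FPKM against 0.502, 1.66 and 0.980 FPKM (log2 difference 3.39, SE 0.69, limma adjusted p = 0.00799). Plau, the urokinase gene, had 5.21, 53.5 and 24.7 FPKM against 4.75, 5.75 and 4.02 FPKM and was not called (log2 difference 1.83, SE 0.70, limma adjusted p = 0.0713). Plau overlapped between groups, through knockout mouse 1. Vtn, the plasma and matrix protein vitronectin, was called higher at a low level, 0.562, 1.55 and 1.66 FPKM against 0.0533, 0.0547 and 0.105 FPKM (log2 difference 1.04, limma adjusted p = 0.0104).

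Serpinf1, a secreted factor that restrains vessel growth and does not inhibit proteases, had 3.34, 5.33 and 2.79 FPKM in Gm31629-/- mice and 0.0917, 0.259 and 0.0677 FPKM in WT mice (log2 difference 2.05, SE 0.22, limma adjusted p = 0.000781). The groups were well separated. Pnpla2, the lipase described as its receptor, was at 61.9 to 87.7 FPKM in knockout and 75.5 to 87.0 FPKM in WT mice and was not called (limma adjusted p = 0.336). Serpinf2, the main plasmin inhibitor of plasma, was the only member lower in every Gm31629-/- mouse than in every WT mouse, with 3, 14 and 5 fragments against 15, 17 and 18. At this depth its log2 difference without a filter, -0.25, was not past the threshold (limma adjusted p = 0.107).

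Serpini1 (neuroserpin), which neurons release to inhibit the tissue plasminogen activator, had 144, 201 and 51 fragments in Gm31629-/- mice and 1, 4 and 0 in WT mice. It missed the filter with levels of at most 1.49 FPKM, the highest of any member left out, and without a filter its log2 difference was 0.93 (SE 0.22, limma adjusted p = 0.0269). The 10 markers of enteric neurons and glia summed to 31.9 to 102.5 FPKM in Gm31629-/- mice and 2.77 to 4.79 FPKM in WT mice, with 9 of 10 called higher and the same order of the knockout mice as Serpini1. Their part in the Serpini1 values was not tested. Serpini2, a serpin of the exocrine pancreas, was found only in Gm31629-/- mouse 3, with 32 fragments. Markers of pancreatic acinar cells stood apart in this same library, at 2079 FPKM in sum against 26.2 to 53.7 FPKM in the other 5. In those 5 the sum was nearly all Cela1, at 25.6 to 53.7 FPKM, and Cpa1, Pnlip, Ctrb1 and Prss2 were at most 0.399 FPKM. The plasma inhibitors of thrombin gave close to no signal, with 30 fragments in knockout and 16 in WT libraries for Serpinc1 and 22 and 5 for Serpind1.

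**Figure D3:**
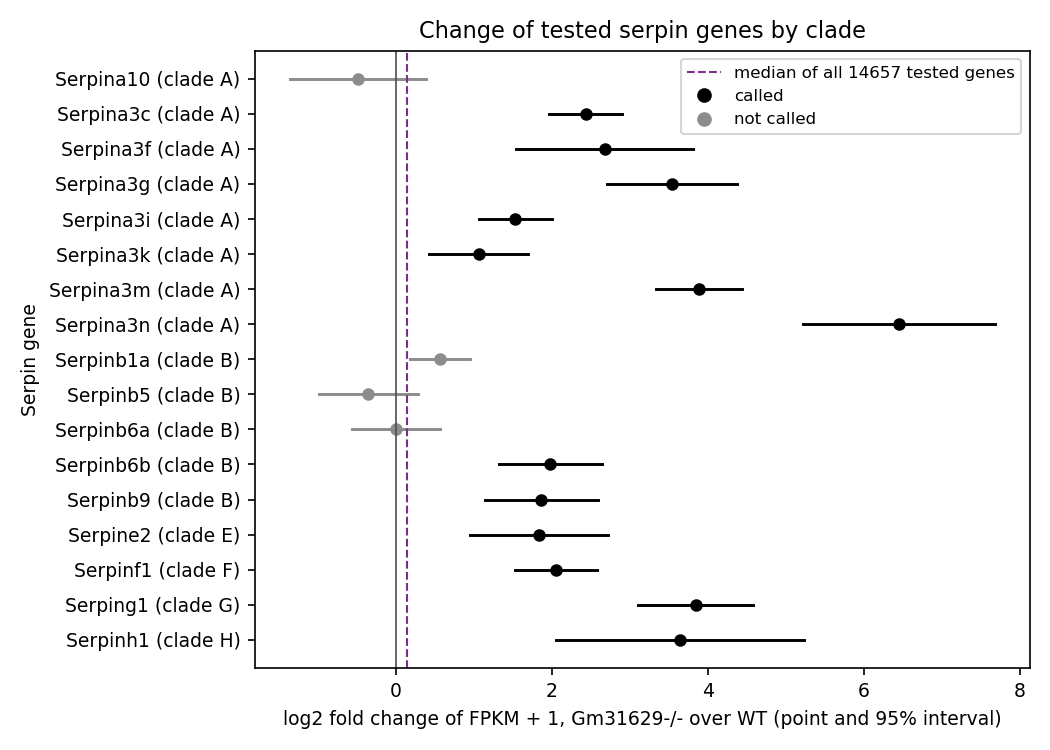
Log2 fold change of FPKM + 1, Gm31629-/- over WT, for tested serpins, as points with 95% intervals, black where called and grey where not. The dashed line is the median of all tested genes at 0.15, and the intervals of Serpina10, Serpinb5 and Serpinb6a cross 0.

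Over all 42 members, the 3 Gm31629-/- mice lay above the 3 WT mice in 22, below in 1 and overlapped in 19. Knockout mice lay above WT mice in 31% of all listed genes and below in 12.6%. Among the 18 tested members the count above was 14, beside 36.3% of tested genes. The 24 members under the filter included 8 above and 12 with 10 or fewer fragments over all 6 libraries, where differences could go undetected at this depth. Serpinb2, with 9 fragments in knockout and 1 in WT libraries, is in both counts.

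The balance of serpin mRNA shifted between genotypes. Summed over the 42 members, it came to 931, 1551 and 1062 FPKM in Gm31629-/- mice (1181 ± 327, SD, n = 3) and 336, 375 and 297 FPKM in WT mice (336 ± 39.2, SD, n = 3). In WT colon 85.02% ± 1.53 (SD, n = 3) of this sum was Serpinb1a and Serpinb6a, the intracellular inhibitors of neutrophil granule proteases. In Gm31629-/- colon this pair made up 35.2% ± 10.9 (SD, n = 3). Serpina3n held 31.1% ± 2.24 of the sum in Gm31629-/- mice and 1.13% ± 0.904 in WT mice (SD, n = 3). All Serpina3 genes together held 38.3% ± 3.47 and 2.39% ± 0.799 (SD, n = 3). Serping1 accounted for 12.3% ± 2.03 and 2.69% ± 0.627, and Serpinh1 for 9.72% ± 6.02 and 1.92% ± 0.262 (SD, n = 3). A test on 3 against 3 mice by exact permutation cannot give a p under 0.10, and none was run on these shares.

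**Figure D4:**
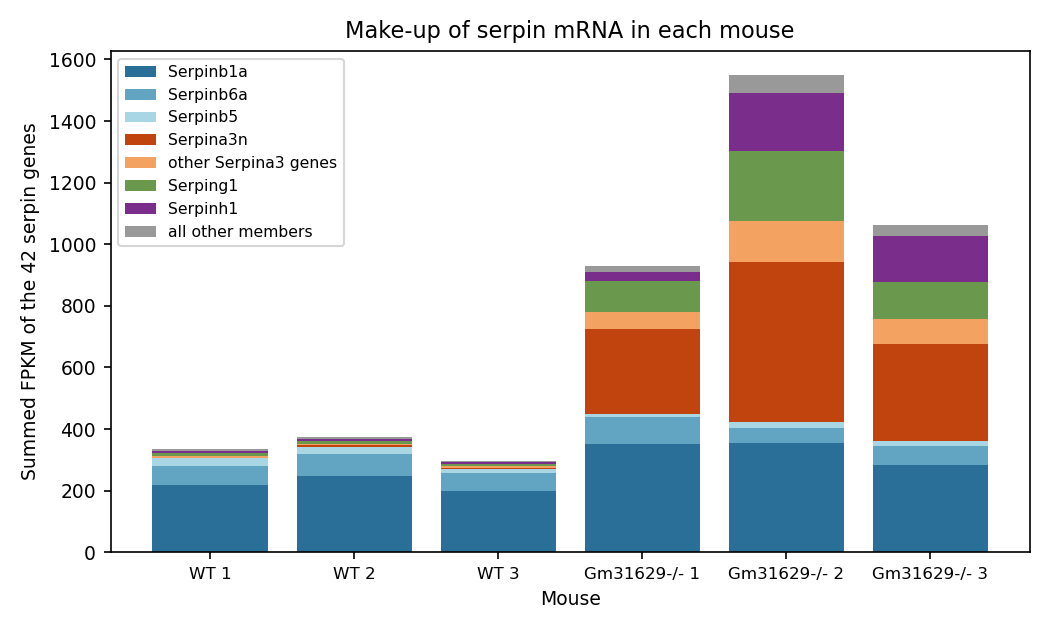
Summed FPKM of the 42 serpin genes in each mouse, stacked by gene or gene group. The WT bars of 297 to 375 FPKM were mostly Serpinb1a and Serpinb6a (blue), and the Gm31629-/- bars of 931 to 1551 FPKM added Serpina3n (orange), Serping1 (green) and Serpinh1 (purple).

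The proteases that serpins control, their partners, other inhibitors and acute-phase genes were read from lists of 62 genes, of which 61 were in the table and 47 were tested. Of these, 24 were called higher and 1 lower, where 18.4% and 4.64% of all tested genes were. Gzmk, F10, Ctsk, Vtn, Tfpi and Cp, with WT means of 0.0709 to 0.383 FPKM, passed the filter only through their level in Gm31629-/- mice. Without a filter, 24 of the 61 were called higher and 1 lower, beside 9.21% and 2.25% of all genes. Among the 34 proteases, 23 were tested, 8 were called higher (Gzmk, Plat, F10, C1ra, C1s1, Ctsl, Ctss and Ctsk) and 1 lower (Proc). The neutrophil proteases that Serpina3n and Serpinb1a inhibit gave little signal. Elane and Ctsg were at 0 in WT mice and at most 1.16 FPKM in Gm31629-/- mice, and Prtn3 had 0.722, 1.94 and 0.471 FPKM against 0.0312, 0.0321 and 0.0922 FPKM with a log2 difference of 0.89 under the fold threshold (limma adjusted p = 0.0295). Neutrophil granule proteases are transcribed mostly in bone marrow precursors, so their mRNA in colon is no measure of the enzymes. The 8 neutrophil markers summed to 485 to 1024 FPKM in Gm31629-/- mice and 69.8 to 127 FPKM in WT mice, with 7 of 8 called higher and with Camp and Ngp at 0 in WT mice. Ly6g made up most of these sums, at 288, 596 and 965 FPKM in Gm31629-/- mice and 66.7, 121 and 80.8 FPKM in WT mice. S100a9, the next highest, was at 120, 77.2 and 35.0 FPKM against 2.07, 4.04 and 2.85 FPKM.

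Granzyme B, the target of Serpina3n and Serpinb9, did not follow its inhibitors. Gzmb was at 5.87, 14.0 and 3.49 FPKM in Gm31629-/- mice and 14.6, 3.13 and 6.63 FPKM in WT mice (log2 difference -0.03, SE 0.58, limma adjusted p = 0.969). Gzma, the target of Serpinb6b, was at 19.4, 10.7 and 2.27 FPKM against 10.6, 5.96 and 11.6 FPKM (log2 difference -0.13, SE 0.63, limma adjusted p = 0.882). Both overlapped widely between genotypes, and these wide errors leave room for changes in either direction. Gzmk was the granzyme called higher, at 5.05, 1.99 and 1.68 FPKM against 0.311, 0 and 0.115 FPKM (log2 difference 1.68, limma adjusted p = 0.00588). The mast cell proteases had 0 of 4 tested genes called.

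Cysteine cathepsins, which Serpina3g inhibits inside cells, had 3 of 4 genes called higher. Ctss, a protease of antigen-presenting cells, stood at 578, 413 and 451 FPKM against 213, 212 and 170 FPKM (log2 difference 1.27, SE 0.19, limma adjusted p = 0.0024). Ctsk, which degrades collagen, was at 7.30, 15.5 and 7.81 FPKM against 0.215, 0.478 and 0.457 FPKM (log2 difference 2.95, SE 0.28, limma adjusted p = 0.00053). Ctsl had a log2 difference of 1.18, and Ctsb, at 0.44, was not called. The 8 macrophage markers summed to 332 to 669 FPKM in Gm31629-/- mice and 43.5 to 53.7 FPKM in WT mice, and 7 of 8 were called higher. Their part in the cathepsin and Serpina3g values was not tested.

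On the coagulation list, F10 was called higher (log2 difference 1.55, limma adjusted p = 0.0138) and Proc, the gene of the anticoagulant protein C, was called lower. Proc had 0.972, 0.554 and 0.904 FPKM in Gm31629-/- mice and 3.35, 3.51 and 2.005 FPKM in WT mice (log2 difference -1.11, SE 0.21, limma adjusted p = 0.00624). Thbd, the endothelial receptor through which thrombin activates protein C, went the other way, at 6.89, 25.5 and 16.0 FPKM against 0.755, 1.63 and 0.757 FPKM (log2 difference 2.93, limma adjusted p = 0.00228). Endothelial markers were higher as well, with 6 of 6 called and sums of 58.7 to 86.3 FPKM against 2.67 to 6.45 FPKM. The epithelial serine proteases St14, Prss8, Klk1 and Tmprss2 had 0 of 4 called. Under the fold threshold, St14 was lower without overlap, with means of 90.8 FPKM in Gm31629-/- and 131 FPKM in WT mice (log2 difference -0.52, limma adjusted p = 0.0173). Tmprss2 was higher without overlap, with means of 297 and 158 FPKM (log2 difference 0.87, limma adjusted p = 0.0216). Prss8 and Klk1 overlapped between groups.

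Serpins were not the only inhibitors that were higher. Slpi, a small inhibitor of neutrophil elastase built on another fold, was at 58.1, 378 and 143 FPKM in Gm31629-/- mice and 2.84, 3.48 and 1.94 FPKM in WT mice (log2 difference 5.32, SE 0.60, limma adjusted p = 0.000902). Its knockout mice kept the order seen for most called serpins, with mouse 2 highest and mouse 1 lowest. Tfpi, the inhibitor of the tissue factor pathway, and Wfdc2 were also called higher, with log2 differences of 1.62 and 1.55, whereas the epithelial inhibitors Spint1 and Spint2 had -0.22 and -0.02 and were not called. Acute-phase genes, whose liver forms rise together with Serpina3n in inflammation, had 5 of 7 tested genes called higher (Saa1, Saa3, Lcn2, Hp and Cp). Hp, which encodes haptoglobin, was at 96.1, 97.6 and 36.6 FPKM against 2.79, 4.08 and 5.86 FPKM (log2 difference 3.80, limma adjusted p = 0.00076). Lcn2 and Cp had log2 differences of 2.97 and 2.85.

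**Figure D5:**
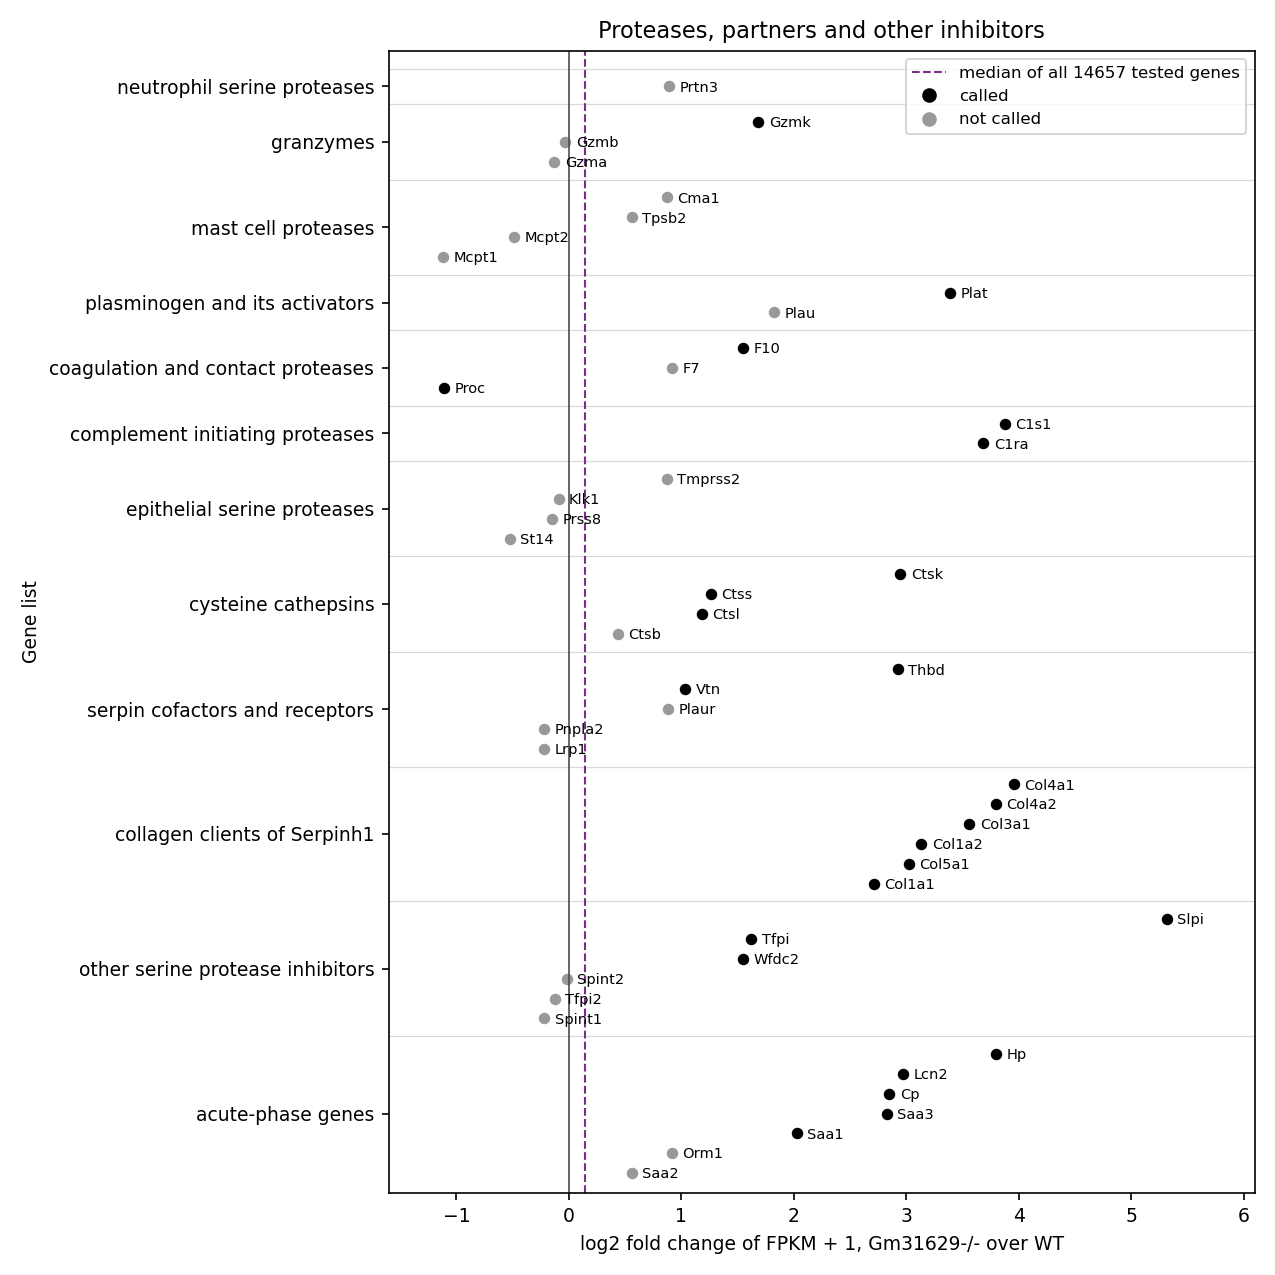
Log2 fold change of FPKM + 1, Gm31629-/- over WT, for the 47 tested genes of 12 lists of proteases, partners, other inhibitors and acute-phase genes, black where called and grey where not, with the median of all tested genes as a dashed line at 0.15. Points of the complement and collagen lists lie at 2.71 to 3.95, and those of the epithelial serine proteases at -0.52 to 0.87.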

How the data were processed

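RNA-Seq had been carried out on distal colon of 3 Gm31629-/- and 3 WT mice, with a library per label, and samples were grouped by genotype and numbered as in their titles. The study's methods speak of RNA pooled from the mice of a group, but the table holds a value per library, so p-values measure the spread between libraries. The authors deposited FPKM, which are fragments divided by gene length and library depth. The submitters' processing notes name HISAT2 2.1.0, HTSeq 0.6.0 and GRCm38, and the annotation and read length are not given in the sources used here. The paper used DEGseq, which needs counts and was not repeated.

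Symbols, positions and exon lengths came from GENCODE M21 (GRCm38), which matched 27488 of 27546 identifiers. Members and lists were chosen with earlier results of these data known. Serpins called, Serpina3n and tested members at a mean FPKM of at least 10 were to be named with every mouse's value, the other members with ranges or counts, and called list genes with values for up to 3 of each list. Values of other genes were added after they were seen. Some genes that enter the counts are not reported here. Protein stretches planned for the called members were replaced by coding bases of the Serpina3 genes.

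The 14657 genes whose mean reached 0.5 FPKM entered a single limma model (version 3.58.1, R 4.3.3, trended eBayes) of log2(FPKM + 1), and p-values were adjusted over all of them by the Benjamini-Hochberg method. For scarce genes the added pseudocount of 1 shrinks the fold change. Dividing out exon length and depth recovered the fragments behind each FPKM, and of the values worth 20 fragments or fewer, 96.3% to 97.2% were whole to within 0.1. A value of 0 allows up to 3 fragments, and intervals on fragments cover counting error only. Transcripts were compared over windows of 100 bases. In simulated data with 14657 genes for this comparison, 71% of 200 genes changed by 1.5 (log2) were called with 5 false calls, 92.5% of those changed by 2.5 with 8 false calls, and 0 genes where none was changed. The simulation gave both groups the same spread and changed far fewer genes than were called in the data. Its rates therefore need not hold for the data. Libraries of a group were not repeats of each other, since the chi-square per gene between them was 32.8 to 47.7 for WT pairs and 109.8 to 166 for Gm31629-/- pairs.

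Alternatives were voom on recovered fragments, leaving out each mouse, blocking on the replicate number, untrended eBayes, scaling by the median ratio or to the same sum (TPM scale), a filter at 5 FPKM or none, and a pseudocount of 0.1. Figures were drawn with matplotlib 3.10.9.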

Additional observations from a re-analysis of the deposited data

How the results depend on the processing

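The count of 14 serpins called higher stayed at 12 to 14 under the alternatives, except that a filter at a mean of 5 FPKM left 10 members to test and 6 called. The count called lower was 0 under every alternative run. Leaving out each mouse gave 12 to 13 called higher, 0 to 0 called lower and a median log2 fold change of the tested members of 1.61 to 2.15. For list genes it gave 24 to 27 called higher and 1 to 2 called lower. The median of the tested members, 1.92, was 3.56 with a pseudocount of 0.1, 0.37 over all 42 members without a filter, 3.11 with the filter at 5 FPKM and 3.87 with voom. With Serpina3k at its bound, an alternative chosen after seeing the data, it was 2.01. The single list gene called lower dropped out at the filter of 5 FPKM, which left 0. Serpinb6a, at 0.0021 and not called, turned to -0.17 with median-ratio scaling, -0.0027 with voom and -0.23 to 0.22 when each mouse was left out, below 0 without Gm31629-/- mouse 1 (-0.23), WT mouse 1 (-0.02) or WT mouse 3 (-0.06). Median-ratio scaling moved the median of all tested genes from 0.15 to 0.02. Mice of the same number did not deviate together over the tested genes (r = 0.0358, -0.108 and 0.0141). Whether the numbers pair mice cannot be decided from these values, since deviations from a mean of 3 mice also carry other differences between them. With the replicate number as a block 14 serpins were called higher, 0 lower and the median stayed at 1.92. Calls rest on 3 mice a group. Members with few fragments could differ without being detected at this depth, and levels of genes that share long stretches depend on how the authors' counting treated them.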

Other observations

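The 2 pseudogenes of the Serpina3 cluster that the choice of members left out gave hardly any signal in either genotype. Serpina3d-ps had 2 fragments in Gm31629-/- mouse 1 and 2 in WT mouse 3, and Serpina3e-ps had 2 and 1 in Gm31629-/- mice 1 and 2 and 4 in WT mouse 3. They lie between Serpina3c and Serpina3f, both of which were called higher. Among the Serpina3 genes, the share of Serpina3n in their summed FPKM was 83.6%, 79.8% and 80.1% in the 3 Gm31629-/- mice and 19.0%, 67.7% and 39.5% in the 3 WT mice. The shares lay close together in knockout colon and far apart in WT colon, where Serpina3n ranged from 0.969 to 7.83 FPKM while Serpina3g kept to 2.30 to 3.61 FPKM.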
